A study of Mus musculus with 8 samples.

Results

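A group of 10 acute-phase genes was followed on all 8 arrays of the series: the orosomucoids Orm1, Orm2 and Orm3, the serum amyloids Saa1, Saa2 and Saa3, and Lcn2, Hp, C3 and Steap4. They are 10 of the 20886 genes that the array's probes matched by RefSeq accession, and 11 probes measured them, C3 having a second probe. These 10 genes were chosen from values of these same arrays, so every level and difference below is a description and carries no test. The acute-phase response is the change in plasma protein synthesis that follows infection or injury. Interleukin-6 and interleukin-1 drive it through STAT3, C/EBP factors and NF-kB, glucocorticoids strengthen it, and the liver is its main source. Fat tissue and macrophages also make serum amyloid A3, lipocalin-2, haptoglobin and orosomucoid, and these genes are among those studied in inflamed fat.

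The samples were 3T3L-1 cells (the 3T3-L1 line), a mouse embryonic fibroblast line used as pre-adipocytes, and Raw264.7 cells, a mouse macrophage line. Each was taken after 48 h of co-culture with the other across a transwell membrane. Both lines had 4 groups by the labels: NT, no treatment; S, serotonin at 100 µM; C, cortisol at 100 µM; and CS, cortisol and serotonin at 100 µM each. The study asked how these stress hormones act on the cells in co-culture, and each treated array was therefore set against NT of its own line. Each group was 1 array, which carried the sample's RNA in Cy5 and a common reference in Cy3, so no value has a replicate and no p-value was computed. The design text calls the reference an equal mixture of RNA of all samples, whereas the study's methods describe it otherwise. The 4 arrays of a line lay on 1 slide, so slide and cell line cannot be told apart, and each treatment had the same position on both slides.

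The arrays had a median Cy5 signal of 51 to 103 over a background of 26.5 to 28, and no saturated spot. Spots marked as outliers were 0.593% to 1.90% of each array. The array of Raw264.7 cells labelled S had the highest median Cy5 signal, 103 against 51 to 61 on the other 3 of its slide. The lines could be told by their markers. The summed Cy5 level of the 11 macrophage markers with a probe was 155678 to 180407 on the Raw264.7 arrays and 7139 to 11863 on the 3T3L-1 arrays, and that of 12 fibroblast markers was 241634 to 335151 on the 3T3L-1 arrays and 2993 to 5628 on the Raw264.7 arrays. Adipoq, which marks mature fat cells, was not well above background on any 3T3L-1 array, and Alb, the liver's albumin, on none of the 8. These are bulk RNA samples, in which fewer cells of a type and less RNA per cell cannot be told apart.

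A set of 12 genes that glucocorticoids are known to induce had a median that went against the treatment labels in 3T3L-1 cells. Their median log2 difference from NT was -0.26 on the array labelled C, 0.59 on the array labelled S and 0.70 on the array labelled CS. Fkbp5, which encodes a chaperone partner of the glucocorticoid receptor, differed from NT by 0.14 on the array labelled C, 1.31 on S and 1.44 on CS. Zbtb16, a transcription factor gene, differed by -0.19, 1.94 and 1.96 in the same order, and Pdk4, a kinase gene of fuel selection, by 0.74, 1.42 and 1.53. These 3 were the targets at least 2-fold higher on S and on CS, and none was 2-fold lower there. Of all genes measured, 0.515% were higher on S and 0.784% on CS. By contrast C had Errfi1, which encodes an inhibitor of the epidermal growth factor receptor, at 3.01-fold lower than NT. Tsc22d3, the leucine zipper gene known as GILZ, was 2.08-fold lower on C, where 1.23% of all genes were at least 2-fold lower. Some targets lay below NT on S and CS as well: Angptl4, a lipase inhibitor gene, differed by -0.67 and -0.73 and Mt2 by -0.31 and -0.47. The set's medians in Raw264.7 cells were -0.27 for C, 0.21 for S and -0.02 for CS, over the 10 of its genes that were measured there. Whether the labels C and S match the treatments was not tested, so all arrays are named below by their labels.

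The 3 orosomucoid genes encode plasma glycoproteins that carry basic and lipophilic compounds and temper immune responses. They lie side by side on chromosome 4, Orm1 at chr4:63344556-63348163, Orm3 at chr4:63356069-63359506 and Orm2 at chr4:63362449-63365877 of mouse build GRCm38.p6. In 3T3L-1 cells the levels of Orm2 and Orm3 were high on the arrays labelled S and CS and low on those labelled NT and C, with a wide gap between the pairs. The Cy5 signal of Orm2 was 289 in NT, 1670 in S, 231 in C and 1471 in CS, while its reference signal stayed between 325 and 385. The log2 ratio of Orm2 to the reference was 0.45 in NT, 2.78 in S, 0.40 in C and 2.63 in CS. Orm3 also had S and CS above NT and C: its Cy5 signal was 127, 664, 104 and 756, and its log2 ratio 0.15, 2.58, 0.39 and 2.47. Against NT, Orm2 was 5.01-fold higher on the array labelled S, a log2 difference of 2.33 ± 0.43. This error and those that follow are the ratio errors that the scanner software attached to both arrays, combined, and they hold no biological spread. Orm3 was 5.37-fold higher on the array labelled S (2.42 ± 0.48). These put Orm3 at rank 4 and Orm2 at rank 6 from the highest of 13590 genes measured. Here and below, all genes measured include probes without a RefSeq match, each under the array's own name. On the array labelled CS, Orm2 was 4.52-fold higher (2.18 ± 0.43) and Orm3 4.98-fold higher (2.32 ± 0.45). On the array labelled C, Orm2 differed from NT by -0.05 ± 0.32 and Orm3 by 0.23 ± 0.38, less than their errors.

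Orm1 ran the same way at signals nearer the background. Its Cy5 signal on the 3T3L-1 arrays was 84 in NT, 283.5 in S, 77.5 in C and 346 in CS, well above background on all 4. Its reference signal, 128.5 to 169, passed that mark only on the array labelled C, so Orm1 is not among the genes counted. With the Cy5 channel alone required to be well above background, Orm1 was 3.00-fold higher than NT on the array labelled S, 3.17-fold higher on CS and 1.06-fold higher on C. In Raw264.7 cells the orosomucoids were at or near background. Orm2 had a Cy5 signal of 38 to 80.5 there and was not well above background on any of the 4 arrays. Orm1 and Orm3 passed that mark only on the array labelled S, with Cy5 signals of 92 and 141 against 36 to 46 on the other 3. On that array dim spots were raised in general: Alb read 81 there and 39 to 45 on the other Raw264.7 arrays, and Adipoq, at 101, passed the mark. With the NT array giving only a bound, Orm3 was at least 1.9998-fold higher on the array labelled S, on the Cy5 scale after normalization between arrays. The part of the raised dim signals in that value was not tested. A bound here sets the brighter array's level against the lowest level that is well above background on the dimmer one.

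**Figure D1:**
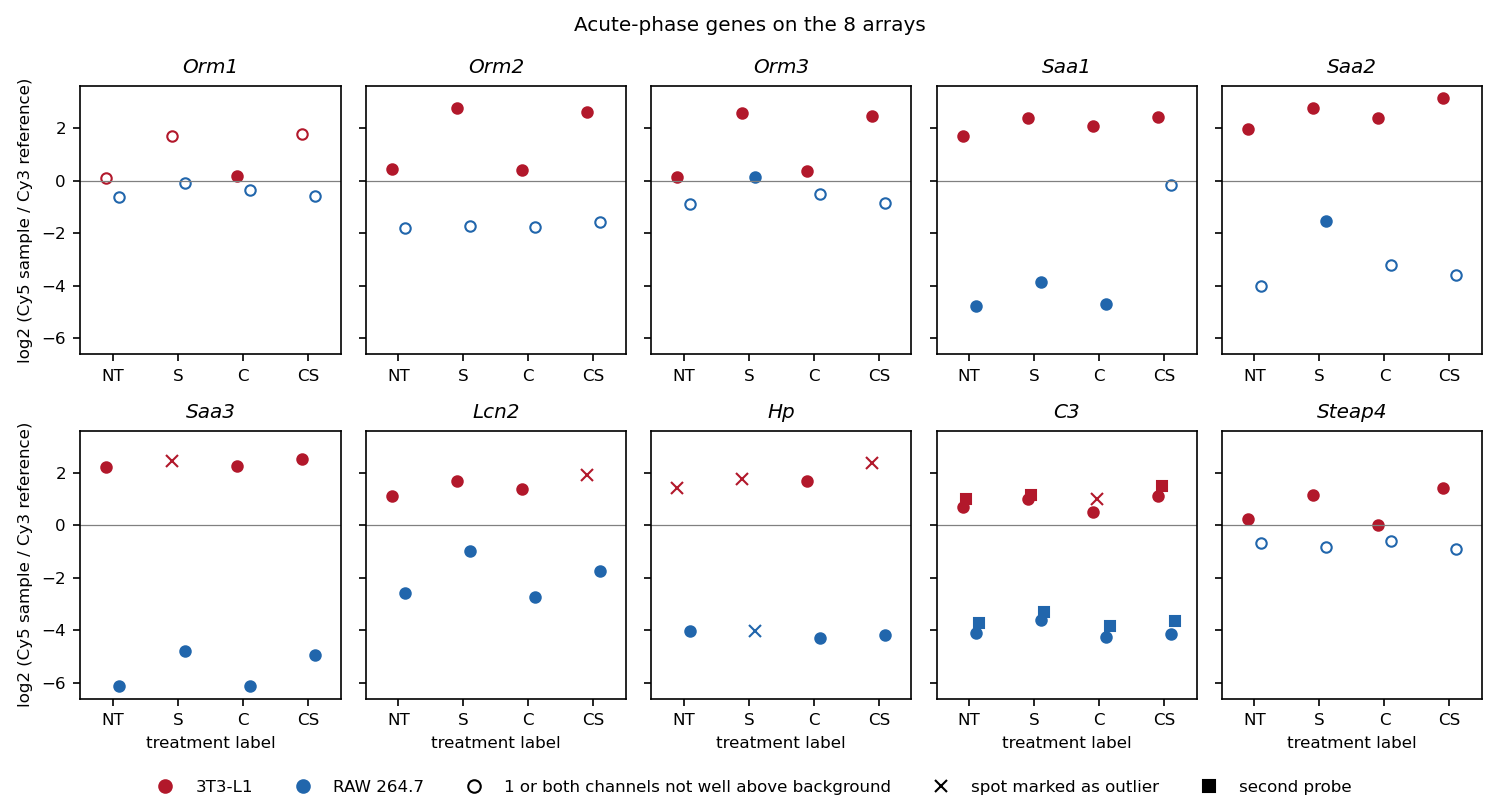
Log2 ratio of sample (Cy5) to reference (Cy3) of the 10 genes on the 8 arrays, 1 array per point, by treatment label; filled points are well above background in both channels, open points are not, and crosses are spots that the scanner marked as outliers. In 3T3L-1 cells Orm2 reads 0.45, 2.78, 0.40 and 2.63 in NT, S, C and CS, while in Raw264.7 cells its sample channel was not well above background on any array.

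The promoters of Orm2 and Orm3 are printed because the genes moved together and are near copies, and those of Saa3 and Lcn2 because these were the members that changed in Raw264.7 cells. RefSeq promoter windows, 300 bases that end 50 bases past the start site, were found for 8 of the 10 genes, and not for Orm1 and Hp. The 250 bases before the start site are shown 5′ to 3′ on the gene's own strand, in build GRCm38.p6, with matches to the searched motifs in capitals. Orm2 lies at chr4:63362199-63362448 on the plus strand, Orm3 at chr4:63355908-63356157 on the plus strand, Saa3 at chr7:46715677-46715926 on the minus strand and Lcn2 at chr2:32387740-32387989 on the minus strand. The Orm3 stretch runs into the gene as annotated and the Saa3 stretch lies wholly inside it, so both precede a start site within the gene.
Orm2: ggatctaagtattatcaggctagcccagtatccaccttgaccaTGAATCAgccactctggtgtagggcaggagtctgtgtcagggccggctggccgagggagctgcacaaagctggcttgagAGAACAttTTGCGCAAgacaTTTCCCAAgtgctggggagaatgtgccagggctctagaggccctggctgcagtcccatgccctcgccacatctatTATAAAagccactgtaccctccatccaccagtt
Orm3: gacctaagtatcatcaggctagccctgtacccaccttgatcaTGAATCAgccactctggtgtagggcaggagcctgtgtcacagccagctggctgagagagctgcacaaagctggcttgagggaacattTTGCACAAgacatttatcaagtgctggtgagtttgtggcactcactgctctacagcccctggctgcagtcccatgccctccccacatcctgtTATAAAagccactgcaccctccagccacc
Saa3: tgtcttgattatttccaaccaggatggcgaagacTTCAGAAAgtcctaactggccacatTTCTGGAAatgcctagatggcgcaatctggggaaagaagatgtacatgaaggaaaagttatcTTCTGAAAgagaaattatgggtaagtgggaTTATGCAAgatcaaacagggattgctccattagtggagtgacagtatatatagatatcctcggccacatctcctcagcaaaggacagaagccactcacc
Lcn2: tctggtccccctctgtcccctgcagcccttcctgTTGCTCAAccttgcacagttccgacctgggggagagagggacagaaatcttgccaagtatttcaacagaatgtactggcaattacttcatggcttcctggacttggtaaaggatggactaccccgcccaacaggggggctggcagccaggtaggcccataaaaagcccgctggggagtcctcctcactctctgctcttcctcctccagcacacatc

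The motifs were searched on both strands of the whole windows. They were C/EBP as TTNNGNAA, NF-kB as GGANNNTCC, STAT as TTCNNNGAA, AP-1 as TGANTCA, the TATA box as TATAAA, the glucocorticoid receptor element, and AGAACA, which is an arm of that element. The Orm2 and Orm3 windows were identical at 264 of 305 aligned positions (86.6%). Both held TGAATCA, a match to AP-1 that starts 207 bases before the start site in Orm2 and 208 in Orm3. Both held a C/EBP match (120 and 121 bases before) and a TATA box (33 and 29 bases before). Orm2 alone held a second C/EBP match, 108 bases before, and AGAACA, 128 bases before. The Saa3 window held 4 C/EBP matches and the Lcn2 window 1. All 8 windows held C/EBP matches, 1 to 4 each, none held NF-kB or the full glucocorticoid receptor element, and that of Steap4 alone held STAT. Among all 32851 windows of the table, 40.7% held C/EBP, 8.62% NF-kB, 8.30% STAT, 7.81% AP-1, 13.6% the TATA box, 19.0% AGAACA and 0.0396% the full element. A match is a description of letters and not a site of binding.

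The serum amyloid A genes encode apolipoproteins that ride on high-density lipoprotein during inflammation. Saa1 and Saa2 are the liver forms, and Saa3 is the form made in fat and macrophages. All 3 lie on chromosome 7, Saa3 at chr7:46711998-46719615, Saa1 at chr7:46740497-46743181 and Saa2 at chr7:46751833-46754313. The promoter windows of Saa1 and Saa2 were identical at 287 of 301 aligned positions (95.3%). Whether the arrays' probes separate the transcripts of Saa1 and Saa2 was not tested. In 3T3L-1 cells all 3 were high on every array, above the reference, and on the arrays labelled S and CS they lay above NT by less than Orm2 and Orm3 did. The log2 ratio of Saa1 was 1.72 in NT, 2.41 in S, 2.09 in C and 2.42 in CS. That of Saa2 was 1.96, 2.77, 2.40 and 3.15 in the same order. That of Saa3 was 2.22 in NT, 2.28 in C and 2.53 in CS, and its spot on the array labelled S, at 2.45, was marked as an outlier and left out. Saa2 on the array labelled CS was the only one of these to pass a 2-fold difference from NT, at 2.29-fold (1.19 ± 0.47). Saa1 was 1.61-fold higher on the array labelled S (0.69 ± 0.41) and 1.62-fold higher on CS (0.69 ± 0.41), and Saa3 was 1.24-fold higher on CS (0.31 ± 0.40). The sample signal of Saa1 was 16264 in NT, 19473.5 in S, 14581 in C and 43298 in CS, and its reference signal 8016, 3914.5, 5961.5 and 9981.5. With the Cy5 channel alone the difference of Saa1 on the array labelled S was -0.14. The part of the lower reference signal in the difference was not tested. For Saa2 the Cy5 channel alone gave 0.36 on S and 1.38 on CS, against 0.82 and 1.19 with the reference.

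In Raw264.7 cells the levels of the serum amyloids were far below the reference, and Saa3 was higher on the arrays labelled S and CS than on NT and C. The log2 ratio of Saa3 was -6.15 in NT, -4.80 in S, -6.12 in C and -4.97 in CS. Its Cy5 signal was 946.5, 1824.5, 652 and 2364.5 on these arrays, and the pairs did not overlap on either scale. Against NT, Saa3 was 2.54-fold higher on the array labelled S (1.35 ± 0.80) and 2.27-fold higher on CS (1.18 ± 0.81), and the log2 difference on the array labelled C was 0.03 ± 0.88. Saa1 had a log2 ratio of -4.77 in NT, -3.87 in S and -4.70 in C, and was 1.86-fold higher on the array labelled S than on NT (0.90 ± 0.68). However, its Cy5 signal was 202 in NT and 194.5 in S, and its reference signal 8435 and 3818. With the Cy5 channel alone the difference was 0.34. Its spot on the array labelled CS was at background in both channels, with a reference signal of 124.5 against 3818 to 8435 on the other 3, so it gave no value. Saa2 was well above background only on the array labelled S, with a Cy5 signal of 117 against 39 to 45, and was at least 2.03-fold higher there than on NT. That array is the one with raised dim signals, whose part in this value was not tested.

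Lcn2 encodes lipocalin-2, which binds the siderophores with which bacteria take up iron, and lies at chr2:32384637-32387739. Of the members measured in Raw264.7 cells it had the largest difference from NT on the array labelled S. Its log2 ratio there was -2.59 in NT, -0.96 in S, -2.75 in C and -1.76 in CS, with Cy5 signals of 12148, 26493, 8582 and 17530. The arrays labelled S and CS stood above NT and C, and S above CS. Against NT, Lcn2 was 3.09-fold higher on the array labelled S (1.63 ± 0.39, rank 15 of 12697 genes), 1.78-fold higher on CS (0.83 ± 0.42) and 1.12-fold lower on C (-0.16 ± 0.46). With the Cy5 channel alone these differences were 1.81, 0.41 and -0.02. In 3T3L-1 cells Lcn2 was above the reference on all arrays, with log2 ratios of 1.13 in NT, 1.71 in S and 1.39 in C. It was 1.49-fold higher on the array labelled S than on NT (0.58 ± 0.33) and 1.20-fold higher on C (0.26 ± 0.32). Its reference signal was 56007 in NT and 30549 in S, and the difference on S was 0.11 with the Cy5 channel alone. Its spot on the array labelled CS, at 1.93, was marked as an outlier, and with it kept the difference from NT was 0.80. Fibroblast markers on the Raw264.7 arrays are given beside these values, since Saa3 and Lcn2 were much higher in 3T3L-1 cells. The 8 fibroblast markers measured on both arrays had a median difference from NT of 0.67 on the array labelled S, with the collagen gene Col3a1 3.999-fold higher, and 6 had a median of 0.38 on CS. Their summed Cy5 level was 5628 in NT, 5132 in S, 5607 in C and 2993 in CS, and Pdgfra was not well above background on any of the 4. Their part in the result was not tested.

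Hp encodes haptoglobin, which captures free haemoglobin, and lies at chr8:109575128-109579172. Its spots on the 3T3L-1 arrays labelled NT, S and CS were marked as outliers, so no difference from NT was counted in that line. With these spots kept, its log2 ratio was 1.41 in NT, 1.77 in S, 1.69 in C and 2.38 in CS, and the difference from NT was 0.36 on the array labelled S and 0.97 on CS. In Raw264.7 cells Hp was far below the reference and nearly level, at -4.04 in NT, -4.31 in C and -4.18 in CS. C3, the central protein of the complement cascade, lies at chr17:57203967-57228136 and changed little in either line. Its first probe has 10 spots on each array, of which 1 to 7 on the 3T3L-1 arrays were outliers and left out. The rest gave log2 ratios of 0.69 in NT, 1.01 in S, 0.54 in C and 1.13 in CS, with an SD among spots of 0.03 to 0.08. The second probe read 1.01 in NT, 1.17 in S and 1.49 in CS. Averaged over its probes, C3 was 1.18-fold higher than NT on the array labelled S (0.24 ± 0.31) and 1.38-fold higher on CS (0.46 ± 0.31). With the Cy5 channel alone these differences were 0.05 and 0.01. In Raw264.7 cells the first probe read -4.10, -3.60, -4.25 and -4.14 in NT, S, C and CS, and C3 was 1.37-fold higher than NT on the array labelled S (0.45 ± 0.57).

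Steap4 encodes a membrane metalloreductase that reduces iron and copper and is known from fat cells, at chr5:7960472-7982213. In 3T3L-1 cells its Cy5 signal was 132.5 in NT, 250 in S, 94.5 in C and 337 in CS, and its log2 ratio 0.23, 1.14, 0.03 and 1.43. S and CS thus lay above NT and C, as for Orm2 and Orm3, with a smaller gap. Steap4 was 2.30-fold higher than NT on the array labelled CS (1.20 ± 0.40), 1.88-fold higher on S (0.91 ± 0.38) and 1.15-fold lower on C (-0.20 ± 0.36). In Raw264.7 cells it was not well above background on any array.

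**Figure D2:**
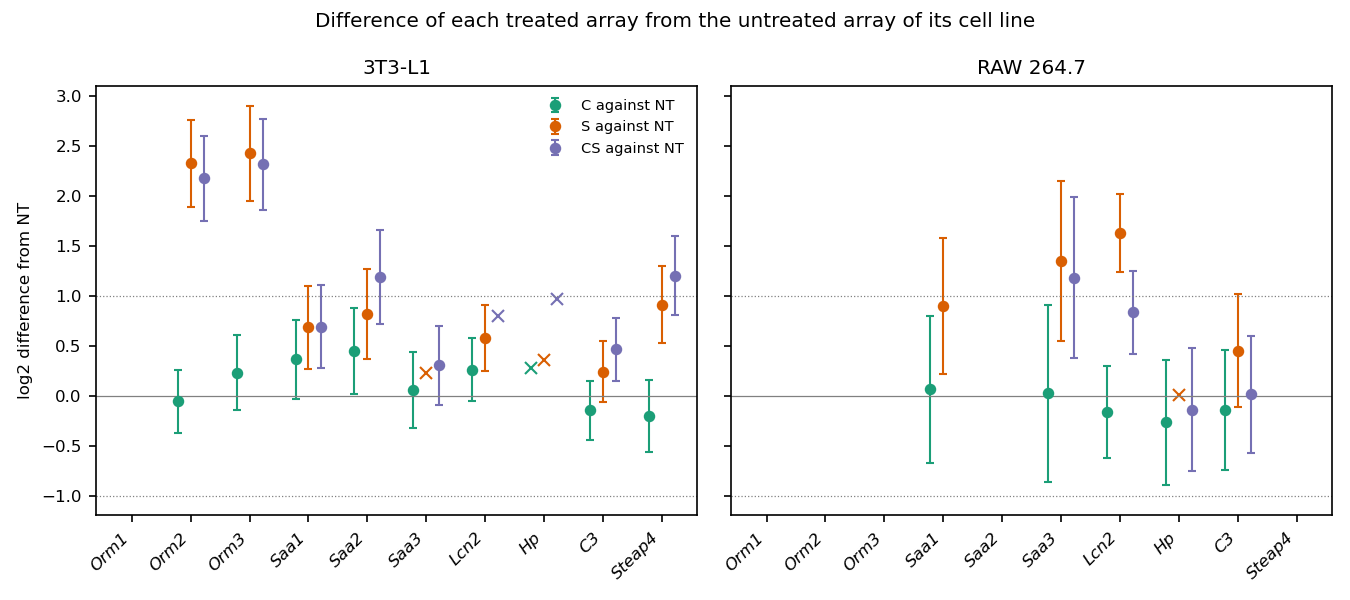
Log2 difference of each treated array from NT of its own line for the 10 genes. Bars are the scanner software's ratio errors of both arrays combined, crosses are differences that rest on a spot marked as an outlier, and dotted lines mark 2-fold. Genes with no point were not well above background in the sample channel, the reference channel or both. For Orm1 in 3T3L-1 cells it was the reference alone. Orm2 and Orm3 stand at 2.33 and 2.42 on the 3T3L-1 array labelled S, and Lcn2 at 1.63 on the Raw264.7 array labelled S.

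Counted from a 2-fold difference against NT, no member was lower in any of the 6 comparisons. In 3T3L-1 cells 2 of the 7 members measured were higher on the array labelled S (Orm2 and Orm3), where 0.515% of all genes measured were. On the array labelled CS 4 of 7 were higher (Orm2, Orm3, Saa2 and Steap4), where 0.784% of all genes were. On the array labelled C none of 8 was higher or lower, where 1.65% of all genes were. In Raw264.7 cells 2 of 4 were higher on the array labelled S (Saa3 and Lcn2), where 0.638% of all genes were, and 1 of 4 was higher on CS (Saa3), where 0.18% were. On the array labelled C none of 5 was higher or lower, where 0.083% of all genes were. The median log2 difference of the members measured was 0.82 on S, 1.19 on CS and 0.15 on C in 3T3L-1 cells, where that of all genes was 0.01, 0.02 and 0.01. In Raw264.7 cells it was 1.12 on S, 0.42 on CS and -0.14 on C, where that of all genes was -0.04, -0.0043 and 0.02. These comparisons chose the members and share the NT array of a line, so nothing is read from the counts beyond their values.

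The pair CS and C shares no array with the pair S and NT, and both differ by serotonin on their labels. Both pairs are made of arrays whose values chose the members, so passing in both is not an independent repeat. In 3T3L-1 cells CS against C gave 3 of 7 members a 2-fold higher level, where 1.35% of all genes had one. Orm2 was 4.69-fold higher (2.23 ± 0.42), Orm3 4.24-fold higher (2.08 ± 0.46) and Steap4 2.65-fold higher (1.40 ± 0.40). Saa2 was 1.68-fold higher (0.75 ± 0.49), Saa1 1.26-fold higher (0.33 ± 0.43), and C3 differed by 0.59 ± 0.30. In Raw264.7 cells 1 of 4 passed 2-fold, where 0.202% of all genes did: Saa3 was 2.23-fold higher (1.15 ± 0.81). Lcn2 came just under the threshold there, at 1.00 ± 0.43 on the log2 scale (1.995-fold), and was at 0.43 with the Cy5 channel alone. Orm2 and Orm3 in 3T3L-1 cells and Saa3 in Raw264.7 cells thus passed 2-fold in both pairs, and Steap4 and Lcn2 in 1 pair each. With the scanner's own ratio Steap4 passed in both pairs, at 1.28 for S against NT and 2.19 for CS against C on the log2 scale. For S against NT it was at 0.61 with the Cy5 channel alone. Under median centring it stood 0.25 above the median of all genes in that pair.

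**Figure D3:**
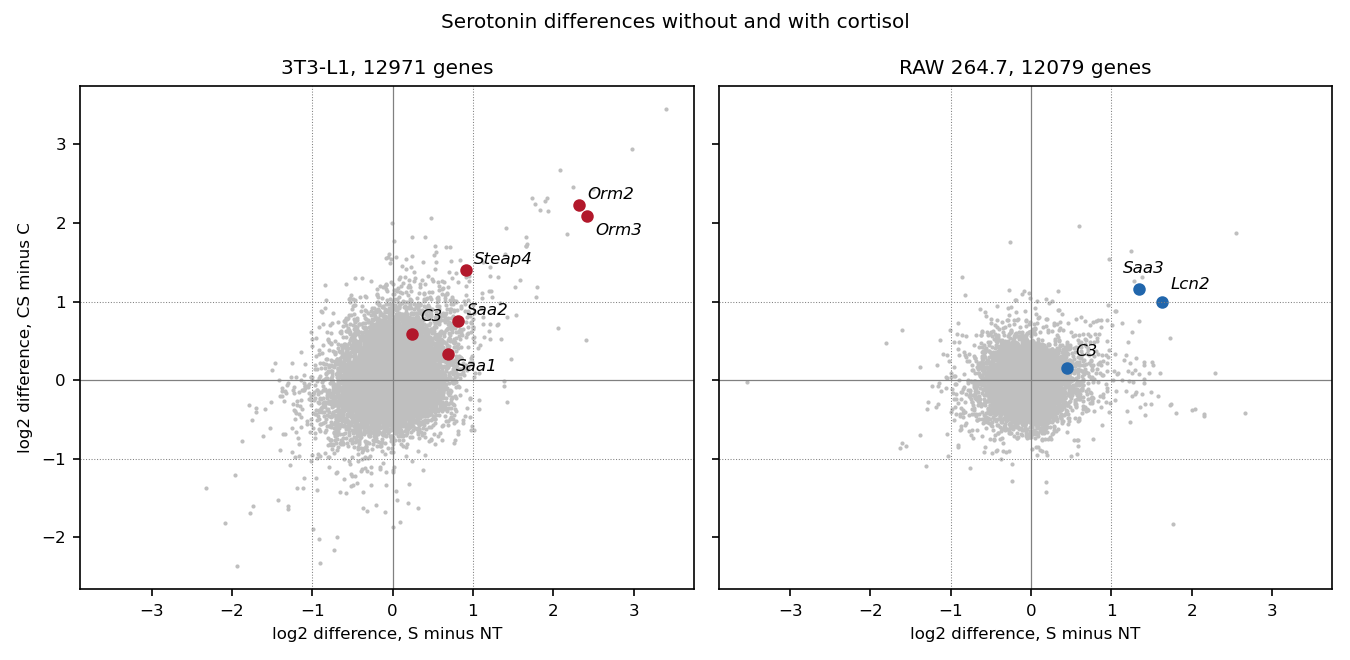
Log2 difference S minus NT (x axis) against CS minus C (y axis), which share no array, for the genes measured in both pairs (grey), 12971 in 3T3L-1 and 12079 in Raw264.7 cells, with the measured acute-phase genes in colour; dotted lines mark 2-fold. Orm2 (2.33 and 2.23) and Orm3 (2.42 and 2.08) lie at the upper right of the 3T3L-1 panel, and Saa3 and Lcn2 at that of the Raw264.7 panel.

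CS against S, which differ by cortisol on their labels, gave none of 6 members a 2-fold difference in 3T3L-1 cells, where 0.0974% of all genes had one. Orm2 differed by -0.15 ± 0.52, Orm3 by -0.11 ± 0.55, Saa2 by 0.38 ± 0.51 and Steap4 by 0.29 ± 0.42, all within their errors. None of 3 passed 2-fold in Raw264.7 cells either, where 1.03% of all genes did. Lcn2 was 1.73-fold lower on the array labelled CS than on S (-0.79 ± 0.35), C3 1.36-fold lower (-0.44 ± 0.56) and Saa3 1.12-fold lower (-0.17 ± 0.72).

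Untreated 3T3L-1 cells had far higher levels of Saa1, Saa2, Saa3, C3 and Lcn2 than untreated Raw264.7 cells. All 4 members measured on both NT arrays were at least 2-fold higher in 3T3L-1 cells, where 17.1% of all genes were. Saa3 was 330.0-fold higher (8.37 ± 0.68, rank 10 of 12951), Saa1 90.0-fold higher (6.49 ± 0.58), C3 27.0-fold higher (4.75 ± 0.47) and Lcn2 13.2-fold higher (3.72 ± 0.39). Over all alternatives the fold was 138 to 330.0 for Saa3, 45.9 to 122 for Saa1, 12.5 to 27.5 for C3 and 5.85 to 13.2 for Lcn2, the low ends coming from median centring or the Cy5 channel alone. The members at background in Raw264.7 cells gave bounds in the same direction on the Cy5 scale. Saa2 was at least 33.5-fold higher in 3T3L-1 cells, Orm2 at least 3.49-fold, Orm3 at least 1.83-fold and Orm1 at least 1.38-fold. For Steap4 the same calculation gave 1.91-fold, above the 1.89-fold of its ratios to the reference, so it is not a bound on the ratio scale. The reference signal of Saa3 was 40776 on the 3T3L-1 and 82707 on the Raw264.7 NT array although the reference is 1 pool, and the lines lay on different slides.

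The other genes of the response were taken from 9 lists, of which 8 are described here and the glucocorticoid target genes above. Of the 35 other acute-phase genes, 16 were measured in 3T3L-1 cells on the array labelled S. Of these 3 were at least 2-fold higher and none lower, where 0.515% of all genes were higher and 0.728% lower. Serpina3m and Serpina3n, which encode serine protease inhibitors of the antichymotrypsin family, were 10.6-fold higher (3.40 ± 0.51) and 7.89-fold higher (2.98 ± 0.52). Lbp, the lipopolysaccharide-binding protein, was 2.01-fold higher (1.00 ± 0.35). The same 3 genes were the ones higher on the array labelled CS, where 14 were measured and 0.784% of all genes were higher. Serpina3m was higher by 14.1-fold, Serpina3n by 9.29-fold and Lbp by 2.41-fold. On the array labelled C they differed from NT by 0.37, 0.28 and 0.31 on the log2 scale. Serpina3m and Serpina3n are near copies, and their probes may share signal. In Raw264.7 cells 1 of 9 was past 2-fold on the array labelled S, the metallothionein gene Mt2 (2.02-fold higher), where 0.914% of all genes were. None of 8 or 9 was on C and CS, where 0.083% and 0.254% of all genes were.

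Upstream of these genes, little passed 2-fold. Of 12 cytokines that induce the response 7 were measured in 3T3L-1 cells. The array labelled C had Il11 3.01-fold higher than NT (1.59 ± 0.45) and Il1a 2.15-fold higher (1.11 ± 0.34), where 0.416% of all genes were higher. None of the 7 passed on S or CS. CS against C had 3 of these 7 at least 2-fold lower, where 0.508% of all genes were, with log2 differences of -1.57 for Il11, -1.43 for Il6 and -1.22 for Il1a. Il6, the main inducer in liver, is named after its values were seen, and differed from NT by 0.68 on C, -0.66 on S and -0.75 on CS. None of the receptors (8 to 11 of 12 measured), signalling genes (13 or 14 of 17) or iron-handling genes (10 to 12 of 14) that were measured passed 2-fold against NT on any array of either line. Of all genes 0.083% to 1.65% did in these comparisons. Of the 31 complement genes, 12 were measured on the Raw264.7 array labelled CS. Itgam, which encodes part of a receptor for C3 fragments, was 2.07-fold lower there, where 0.0749% of all genes were at least 2-fold lower. Of the members' binding partners 5 were measured in 3T3L-1 cells, among them Mmp9, the matrix protease that lipocalin-2 binds. Mmp9 was 3.33-fold lower on the 3T3L-1 array labelled S (-1.74 ± 0.39) and 2.90-fold lower on CS (-1.54 ± 0.37). On these arrays 0.728% and 0.642% of all genes were at least 2-fold lower. Mmp9 was also 2.05-fold lower on the Raw264.7 array labelled CS, where 6 partners were measured. Of the 8 negative acute-phase genes, only 1 was measured in 3T3L-1 cells and 2 in Raw264.7 cells, and none passed 2-fold.

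**Figure D4:**
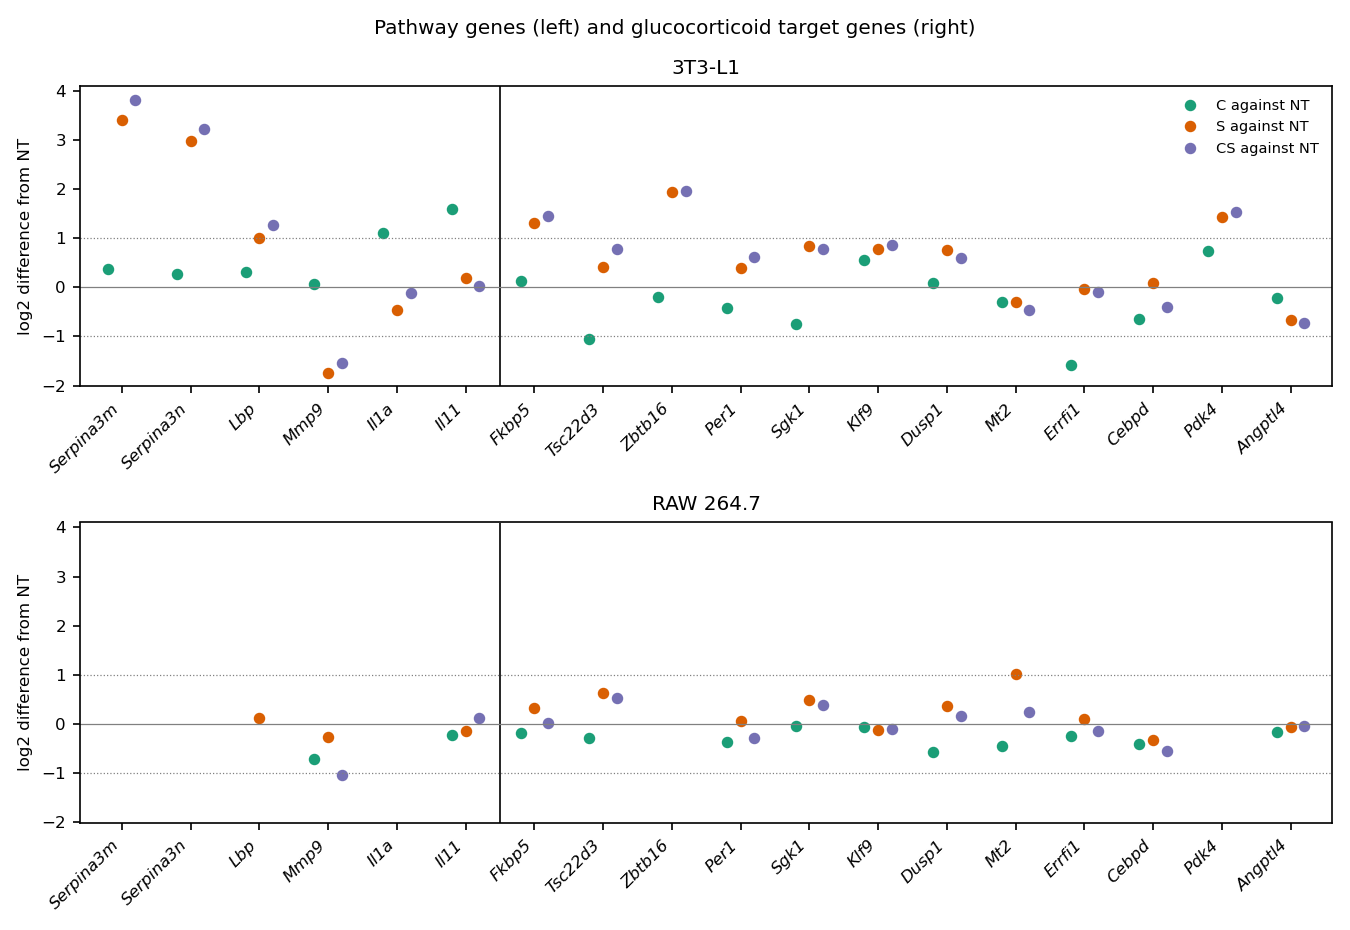
Log2 difference of each treated array from NT for other pathway genes named in the text (left of the line) and the 12 glucocorticoid target genes (right of it); dotted lines mark 2-fold and a missing point was not measured. Serpina3m and Serpina3n stand at 3.40 and 2.98 on the 3T3L-1 array labelled S and were not measured in Raw264.7 cells.

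Among the genes nearest to the mean of Orm2 and Orm3 over the 3 differences from NT in 3T3L-1 cells, by Euclidean distance on the log2 scale among 10540 genes, were Fabp4 (0.26), Clca3a1 (0.46), Ctla2b (0.50) and Ctla2a (0.54). Fabp4 encodes a fatty acid carrier of fat cells and macrophages, and its differences were -0.01 on C, 2.24 on S and 2.45 on CS. Ctla2a and Ctla2b are near copies that encode cysteine protease inhibitors. Of the other fat cell markers, 2 were measured in 3T3L-1 cells and neither passed 2-fold.

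The size of the differences in 3T3L-1 cells depended on how the arrays were scaled. With each array centred on its median in place of loess, the median of all genes moved to 1.07 on the array labelled S, 0.99 on CS and 0.59 on C. The genes past 2-fold went from 70 higher and 99 lower to 7558 and 2 on S, from 105 and 86 to 6635 and 2 on CS, and from 57 and 169 to 2522 and 5 on C. For CS against C they went from 181 and 68 to 716 and 32, and the median moved to 0.32. Relative to the shifted median, Orm2 stood at 1.96 and Orm3 at 1.75 on the array labelled S, Lcn2 at 1.11, Saa1 at 0.95 and Steap4 at 0.25. On CS they stood at 1.83 for Orm2, 1.70 for Orm3, 1.29 for Saa2, 1.01 for Saa1 and 0.61 for Steap4. The orosomucoids had the highest values of the members under both scalings, whereas Steap4 on CS was below 2-fold relative to the shifted median. The median moved by less in Raw264.7 cells, to -0.17 on S, -0.10 on CS and -0.08 on C. There the genes past 2-fold went from 24 higher and 10 lower to 19 and 16 on CS, from 5 and 6 to 3 and 13 on C, and from 62 and 66 to 43 and 90 for CS against S. Between the untreated lines the median moved to -0.84, and 2215 higher and 1981 lower became 900 and 5598.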

How the data were processed

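RNA of 8 co-cultured samples was hybridised to 2-colour Agilent mouse arrays, and the authors quantified the spots with Agilent Feature Extraction 10.5.1.1, per the labels. The deposited scanner files hold median signal intensities of both channels and the software's log10 ratio with its error; a deposited table of log10 values matched that ratio within 0.005 for all 43020 spots of each array and was used as an alternative. Here, limma 3.58.1 (R 4.3.3) was run on the median signals, with normexp background correction at an offset of 50 and then loess on the log2 ratios of each array; control and outlier spots were left out. This was checked on simulated data. Accessions of 27508 of 39429 probes (69.8%) matched RefSeq genes (GRCm38.p6). Probes without a match kept the array's own names, 11511 in all, and count as genes in the ranks, shares and medians of all genes. They were left out of the search for the genes nearest to the orosomucoids. A gene's difference averages the probes whose 2 channels both passed the scanner's mark for well above background on the 2 arrays compared, and 2-fold was the counting threshold. The number of arrays limits the precision.

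The members and lists were chosen with earlier results of these data known. Named were all members with every probe, up to 4 genes per list at least 2-fold changed against NT, the glucocorticoid targets, the 5 genes nearest to the orosomucoids and the defining markers; some genes that this rule names are not reported here. The nearest genes to Lcn2 could not be computed, because its spot on 1 array was an outlier. The comparison of protein sequences was not run. No column of the authors' own comparisons was used. Alternatives were no background correction, other normalizations, filters, probe summaries and a 1.5-fold threshold.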

Additional observations from a re-analysis of the deposited data

How the results depend on the processing

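No paired analysis was possible because each group was 1 array, and no array could be left out for the same reason. No member that passed 2-fold changed direction under any of the 10 alternatives. The counts that follow differ from those above by a factor over 1.5, or from 0. Smaller moves are left out, such as 3 instead of 2 for S in 3T3L-1 cells with the scanner's own ratio (2.75% of all genes). Another is 5 instead of 4 for CS there with the Cy5 channel alone (4.58%). In 3T3L-1 cells the members past 2-fold were 7 instead of 2 for S, 7 instead of 4 for CS and 5 instead of 0 for C under median centring, where 55.6%, 49.5% and 18.4% of all genes passed, and 5 for S at a 1.5-fold threshold (8.27% of all genes). CS against C gave 5 instead of 3 with the Cy5 channel alone (5.02% of all genes) and 5 at 1.5-fold (10.1%), and CS against S gave 2 instead of 0 with the Cy5 channel alone (3.18%). In Raw264.7 cells, S gave 4 instead of 2 with no filter on dim probes (1.23% of all genes), and CS gave 2 instead of 1 with no such filter (0.385%) and 2 at 1.5-fold (2.16%). CS against C gave 2 instead of 1 without background correction (0.295%), under median centring (0.303%), with no filter on dim probes (0.510%) and at 1.5-fold (2.38%). CS against S gave 1 instead of 0 with the Cy5 channel alone (12.9%), 2 with no filter on dim probes (1.35%) and 1 at 1.5-fold (5.67%). Between the untreated lines 7 instead of 4 passed with no filter on dim probes (16.2%). Apart from median centring, the fewer-filter settings admit more genes and the 1.5-fold threshold counts smaller differences of the same genes. The cause of the other moves was not tested. In Raw264.7 cells the no-filter counts for CS include the Saa1 spot that was at background in both channels. It read 4.60 against NT, 4.54 against C and 3.71 against S on the log2 scale, which are not values of Saa1. Over all alternatives the log2 difference of Orm2 on the array labelled S was 2.17 to 3.03, that of Orm3 1.96 to 3.16, that of Lcn2 in Raw264.7 cells 1.32 to 1.81 and that of Saa3 there 1.12 to 1.45. Of the members' single differences, 22 of 59 moved by more than their error under median centring and 14 with the Cy5 channel alone. With the scanner's own ratio 3 moved, as with the deposited table, which holds that same ratio, and 0 moved without background correction. The filter, outlier and probe settings also moved 0. They could change no value or direction but those of C3, since each other member has 1 probe with 1 spot, so they check nothing for these. Signal over background limited Orm1, Orm2, Orm3, Saa2 and Steap4 in Raw264.7 cells, and outlier marks limited Hp and, on 1 array each, Saa3 and Lcn2 in 3T3L-1 cells.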

Other observations

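The untreated lines also differed in other genes of the response, named here after their values were seen. Of 10 other acute-phase genes measured on both NT arrays, 7 were at least 2-fold higher in 3T3L-1 cells and 1 lower, where 17.1% of all genes were higher and 15.3% lower. Cp, the copper-carrying ferroxidase ceruloplasmin, was higher by 5.71 on the log2 scale and Mt1 by 3.29, while Cd14, a lipopolysaccharide co-receptor of macrophages, differed by -4.34. Of 9 receptors, 4 were higher in 3T3L-1 cells, among them Il1r1, the interleukin-1 receptor (4.14), and Il6st, the shared signalling chain of the interleukin-6 family (3.69), and 1 was lower. Tnf, the macrophage cytokine, differed by -4.76. Of 14 signalling genes 7 were higher in 3T3L-1 cells, with Cebpd at 3.34, and 2 lower, with Nfkbia at -2.47. Complement genes split: C1ra (5.09), Cfb (4.48) and C4b were higher in 3T3L-1 cells, and Cfp (-5.10), Itgb2 (-3.77) and 2 others lower, of 10 measured. The share of signalling genes that were lower was thus near that of all genes.

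The reference channel of Col1a1 read 929.5 on the Raw264.7 array labelled S against 5690 to 12655 on the other 3 of its slide.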
